A study of Mus musculus with 8 samples.

Results

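The effect of RB status was examined over all 8 arrays of the series, 4 from Cre cells and 4 from GFP cells, with the treatment state (Naïve or Recurred) as a covariate. The cells were mouse adult fibroblasts (MAFs) from the peritoneal fascia of mice with a floxed Rb gene. In Cre cells Rb had been deleted by an adenovirus that encodes GFP-Cre, and GFP cells, which had received an adenovirus with GFP alone, remained RB-proficient. Every population, the GFP controls included, also expressed p53DD from a retrovirus, which acts as a dominant negative on p53, so the comparison was made in cells with impaired p53 throughout. Cre Naïve and GFP Naïve cells had not been exposed to cisplatin (CDDP), a platinum drug that crosslinks DNA. Cre Recurred and GFP Recurred cells had been exposed to CDDP for 24 h and had then regrown in drug-free medium. Each of these 4 populations was measured on 2 arrays, labelled biological replicates 1 and 2, and they were infected pools of cells and not clones. The p-values below measure the spread between these replicate populations. In the fit with additive terms for RB status and state, that spread also holds any change of the RB difference between the states. Genes that went the same way in both states were kept apart from genes carried by the Recurred arrays alone.

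RB is a pocket protein that binds E2F transcription factors. In resting and early G1 cells RB keeps E2F target genes of DNA replication silent, and cyclin D with its kinases relieves this block by phosphorylating RB. The related pocket proteins p107 and p130, encoded by Rbl1 and Rbl2, repress E2F targets too, and they repress the later genes of G2 and mitosis through a promoter element called the CHR. Fibroblasts without RB are known to enter S phase more readily, and the pathway is often lost in human cancers together with p53.

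Across the 8 arrays, Cre cells had lower Rb1 and lower Ccnd2, higher signals of many replication and mitosis genes by small amounts, and lower signals of interferon response genes. Rb1 and Ccnd2 were lower in both states, as were 31 of 35 interferon response genes, while 27 of 29 mitosis genes and 24 of 40 replication genes were higher in both. A further group of large differences was carried by the Cre Recurred arrays alone. Examples were lower Hspa1a and Lum and, at some of their probe sets, lower Sfrp1 and higher Dppa2. Values are log2 signals from the Robust Multichip Average (RMA), so that a difference of 1 stands for 2-fold, and 45037 probe sets were tested with limma. The array medians lay between 5.38 and 5.41. The fit with RB status and state as additive terms called 0 probe sets (0%), both at 1.5-fold with an adjusted p under 0.25, the limits used in the study, and at 1.5-fold with a stricter adjusted p under 0.05. Its smallest adjusted p was 0.537. At an unadjusted p under 0.05 it held 4020 probe sets (8.93%), 2198 of them higher (4.88%) and 1822 lower (4.05%). A second fit gives each of the 4 populations a mean of its own. It yields the same Cre minus GFP differences. Its residual spread leaves out any change of the RB difference between the states, which the additive fit keeps in its residual. This fit called 580 probe sets (1.29%) by the limits of the study, of which 159 were higher (0.353%) and 421 lower (0.935%). By the stricter limit it called 6 (0.0133%). The words called and adjusted p refer to this second fit from here on, unless the additive fit is named, and it was chosen for the description after the additive fit had given no calls. Without the test, 621 probe sets were at least 1.5-fold higher (1.38%) and 1327 at least 1.5-fold lower (2.95%).

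The 2 arrays of Cre Naïve cells stood apart from each other. Over all probe sets, the array most like Cre Naïve replicate 1 was GFP Naïve replicate 1 (Pearson r 0.9941), and the array most like Cre Naïve replicate 2 was Cre Recurred replicate 2 (r = 0.9917), against r = 0.9855 between the 2 Cre Naïve arrays. Leaving out Cre Naïve replicate 1 raised the count of the additive fit to 2351 in place of 0 and that of the fit of 4 means to 2403 in place of 580, of which 575 were among the 580. Without Cre Recurred replicate 1, GFP Recurred replicate 1 or GFP Recurred replicate 2 the fit of 4 means called 9, 5 and 6, so that nearly all single calls below needed each of these arrays. Fibroblast markers were bright on every array, with a median log2 signal between 10.6 and 12.2 over the 15 markers. The median of leukocyte markers lay between 3.93 and 4.23, that of epithelial markers between 3.94 and 4.29 and that of endothelial markers between 3.28 and 3.91. In RNA from a whole culture, fewer cells of a kind and less RNA per cell cannot be told apart.

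Rb1 itself separated the groups on all arrays. Its brighter probe set, of a gene on mouse chromosome 14, read 6.21 and 5.72 on the Cre Naïve arrays against 7.98 and 8.07 on the GFP Naïve arrays, and 4.98 and 5.45 on the Cre Recurred arrays against 8.21 and 8.78 on the GFP Recurred arrays. All 4 Cre arrays were lower than all 4 GFP arrays, in both states. The Cre minus GFP difference was -2.67 (standard error 0.28 in the additive fit, n = 4 arrays each), with -2.06 in Naïve and -3.28 in Recurred cells. An exact permutation test within states gave a two-sided p of 0.0556, which is the smallest that its 36 relabellings allow. The adjusted p from limma was 0.537 in the additive fit and 0.0345 with 4 means. A dim second probe set differed by 0.11 (exact permutation p = 0.889), and where the probes lie relative to the deleted part of the gene is not given in the sources used here.

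**Figure D1:**
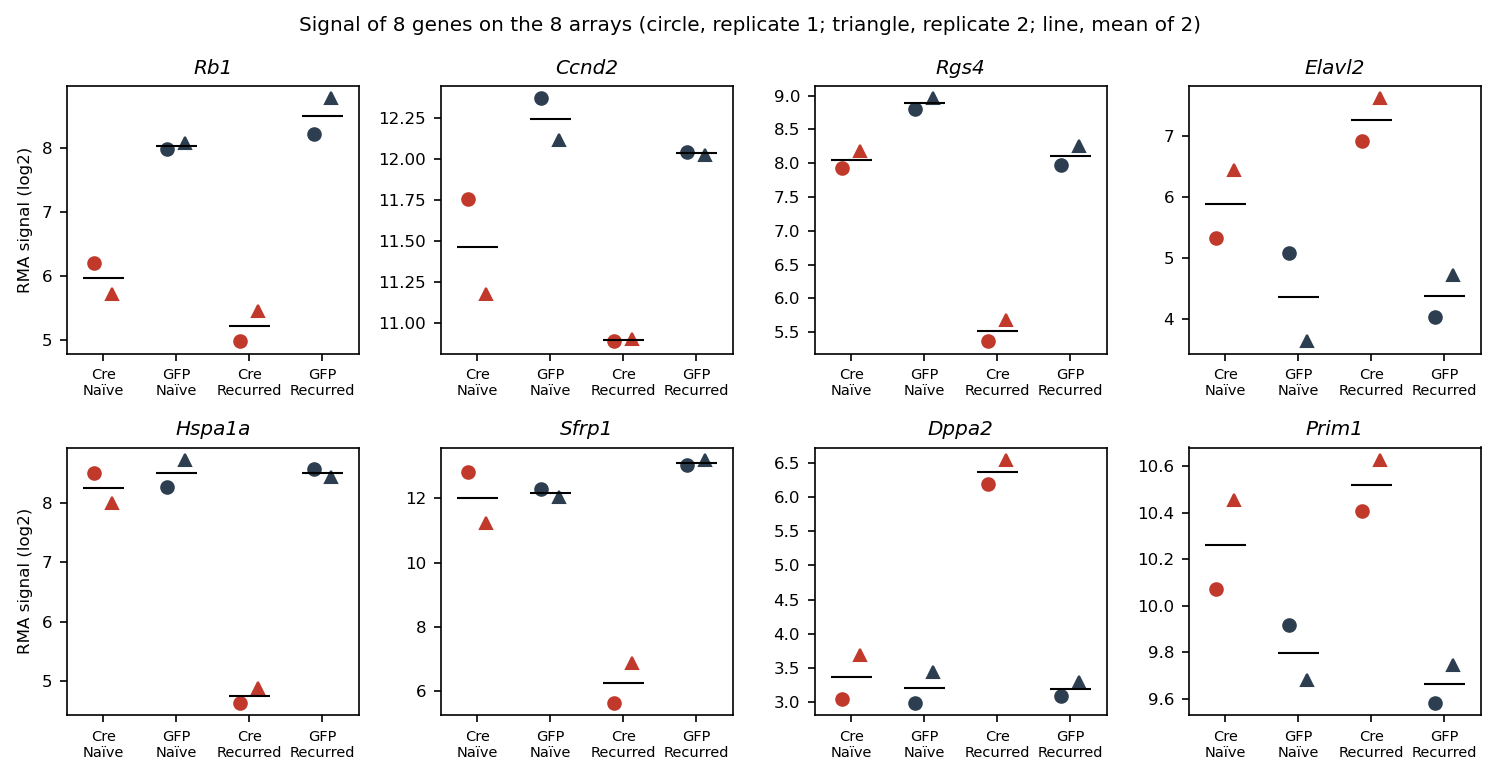
Log2 RMA signal of 8 genes on each array (vertical axis, a scale of its own for each gene) in Cre Naïve, GFP Naïve, Cre Recurred and GFP Recurred cells; circles are replicate 1, triangles replicate 2 and lines the mean of 2 arrays. Rb1 lies between 4.98 and 6.21 on the Cre arrays and between 7.98 and 8.78 on the GFP arrays, whereas Sfrp1, Hspa1a and Dppa2 separate on the Recurred arrays alone.

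The other pocket proteins and the E2F factors were read next, since they form the direct circuit of RB. Rbl1, which encodes p107 and is itself an E2F target, read 9.17 and 9.24 on the Cre Naïve arrays against 9.03 and 8.83 on the GFP Naïve arrays, and 9.54 and 9.82 on the Cre Recurred arrays against 8.57 and 9.04 on the GFP Recurred arrays. Its 4 Cre arrays all exceeded its 4 GFP arrays, by 0.57 on average (standard error 0.17), a difference under 1.5-fold. Such a separation held at 1 of 4 Rbl1 probe sets, whose differences ran from -0.13 to 0.76, with 1 of the 4 lower in Cre cells. Rbl2, which encodes p130, differed by 0.09. Among the E2F factors, E2f8, an atypical repressor that is induced late in S phase, had the largest difference. E2f8 read 8.80 and 9.21 against 8.43 and 8.65 in Cre Naïve and GFP Naïve cells, and 9.98 and 9.40 against 8.14 and 8.54 in Cre Recurred and GFP Recurred cells. Again no Cre array overlapped a GFP array, and the difference of 0.91 was called (adjusted p = 0.192 from limma with 4 means). A second E2f8 probe set differed by 0.41 with overlap, at -0.15 in Naïve and 0.98 in Recurred cells. E2f7, the close relative of E2f8, differed by 0.46 and did not overlap either. The activators E2f1 and E2f2 differed by 0.07 and 0.25 at their brightest probe sets, where the arrays overlapped, and the second probe set of E2f2 differed by 0.58 without overlap and was not called (adjusted p = 0.17 from limma with 4 means). Of 10 E2F and DP factors, 8 were higher in Cre cells, with a median difference of 0.12, and 1 was called. Over all genes 54.5% were higher and 0.467% were called higher.

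The D-type cyclin Ccnd2, which activates the kinases that phosphorylate RB, was lower in Cre cells in both states. At the probe set with the smallest p, Ccnd2 read 11.76 and 11.18 on the Cre Naïve arrays against 12.37 and 12.12 on the GFP Naïve arrays, and 10.89 and 10.91 on the Cre Recurred arrays against 12.04 and 12.03 on the GFP Recurred arrays. The 4 Cre arrays lay below all 4 GFP arrays. The difference was -0.96 (adjusted p = 0.131 from limma with 4 means), with -0.78 in Naïve and -1.14 in Recurred cells. All 7 Ccnd2 probe sets were called, with differences between -1.14 and -0.89 and with Naïve differences between -1.16 and -0.78, and 2 of the 7 did not overlap. Without Cre Naïve replicate 1 the brightest Ccnd2 probe set differed by -1.06, with an adjusted p of 0.0284 in the additive fit. With any other single array left out, its adjusted p in the additive fit lay between 0.267 and 0.983. Cyclin D1, encoded by Ccnd1, showed no such pattern, with -0.64 in Naïve and 0.44 in Recurred cells, and Ccne1, which encodes cyclin E1, differed by -0.07. Of 9 G1 cyclins and kinases 6 were lower and 3 higher, against 45.5% of all genes lower and 54.5% higher. Of 7 inhibitors of these kinases 4 were lower and 3 higher, among them Cdkn1a, the gene of p21, with 0.74 and Cdkn2a, the gene of p16 and p19ARF, with -0.63. Neither Cdkn1a nor Cdkn2a was called.

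Genes of DNA replication that E2F activates at the G1/S boundary were higher in Cre cells as a group, by small amounts. Of 40 measured genes 37 were higher in Cre cells, and 24 of the 40 were higher in both states, against 54.5% and 29% of all 18193 genes. The median difference was 0.24, with 0.10 in Naïve and 0.36 in Recurred cells, beside a median of 0.02 over all genes. The 4 Cre arrays exceeded all 4 GFP arrays for 8 of the 40 genes (20%), against 437 of all genes (2.4%). These 8 genes were Mcm2, Mcm6 and Mcm7 of the replicative helicase, the helicase partner Gins1, the nucleotide enzymes Rrm1 and Dut, the uracil glycosylase gene Ung and the maintenance methyltransferase gene Dnmt1. The count uses the brightest probe set of each gene, and 1 other probe set each of Dut and Mcm6 was lower in Cre cells (-0.16 and -0.02). The separation held at 1 of 4 probe sets of Mcm7 and at 1 of 3 each of Mcm6, Rrm1 and Dnmt1. It held at 1 of 2 each of Mcm2 and Dut and at 2 of 2 of Gins1. Mcm6 read 11.99 and 11.90 on the Cre Naïve arrays against 11.73 and 11.88 on the GFP Naïve arrays, and 11.92 and 11.95 on the Cre Recurred arrays against 11.71 and 11.81 on the GFP Recurred arrays. The groups were thus apart, but by only 0.16. Gins1 and Prim1, a primase subunit, were the 2 of 40 members called, against 0.467% of all genes called higher. Both met the limits for the Recurred arrays alone. Gins1 read 10.07 and 9.77 in Cre Recurred against 8.80 and 8.86 in GFP Recurred cells, and 9.16 and 9.32 in Cre Naïve against 9.13 and 9.14 in GFP Naïve cells (difference 0.60, adjusted p = 0.17 from limma with 4 means). At an additional probe set Prim1 was higher on every Cre array, at 10.07, 10.45, 10.41 and 10.63, against 9.92, 9.68, 9.58 and 9.74 on the GFP arrays. In the additive fit 18 of the 40 were higher at an unadjusted p under 0.05, against 5.58% of all genes. Without Cre Naïve replicate 1, the Cre array most like a GFP array, it called 6 of them higher, against 2.41% of all genes. With all arrays, or with any other single array left out, it called 0 of them.

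Genes of G2 and mitosis were the most even of the lists. All 29 measured members were higher in Cre cells, 27 of them in both states, with a median of 0.39 (0.30 in Naïve and 0.48 in Recurred cells). Cenpf, a kinetochore protein, read 9.46 and 10.15 in Cre Naïve against 9.18 and 9.37 in GFP Naïve cells, and 9.79 and 10.22 in Cre Recurred against 8.98 and 9.34 in GFP Recurred cells. Prc1, which bundles the microtubules of the central spindle, read 10.46 and 11.11 in Cre Naïve against 10.30 and 10.26 in GFP Naïve cells, and 10.65 and 11.01 in Cre Recurred against 10.10 and 10.23 in GFP Recurred cells. Both genes were higher on every Cre array than on any GFP array, by 0.69 and 0.59. The same held for the cyclin gene Ccnb2 (0.31), the spindle factor Tpx2 (0.35), the centromeric histone gene Cenpa (0.47) and the phosphatase gene Cdc25c (0.55), which makes 6 of 29 (20.7%), against 2.4% of all genes. This count too uses the brightest probe set of each gene. The separation held at 1 of 4 probe sets of Tpx2, 1 of 3 each of Cenpa and Cenpf, 1 of 2 of Cdc25c and 2 of 2 of Prc1. Differences at the Cenpa probe sets ran from 0.02 to 0.47. The largest difference belonged to Cenpe, a kinetochore motor, with 0.80, where the arrays overlapped. No member was called, against 0.467% of all genes called higher. In the additive fit 19 were higher at an unadjusted p under 0.05, against 5.58% of all genes, and without Cre Naïve replicate 1 that fit called 10, against 2.41%. With all arrays, or with any other single array left out, that fit called 0. By array the median of the list was 0.11 on Cre Naïve replicate 1 and 0.51 on Cre Naïve replicate 2, and 0.39 and 0.58 on the 2 Cre Recurred arrays, each taken relative to the GFP mean of its state.

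**Figure D2:**
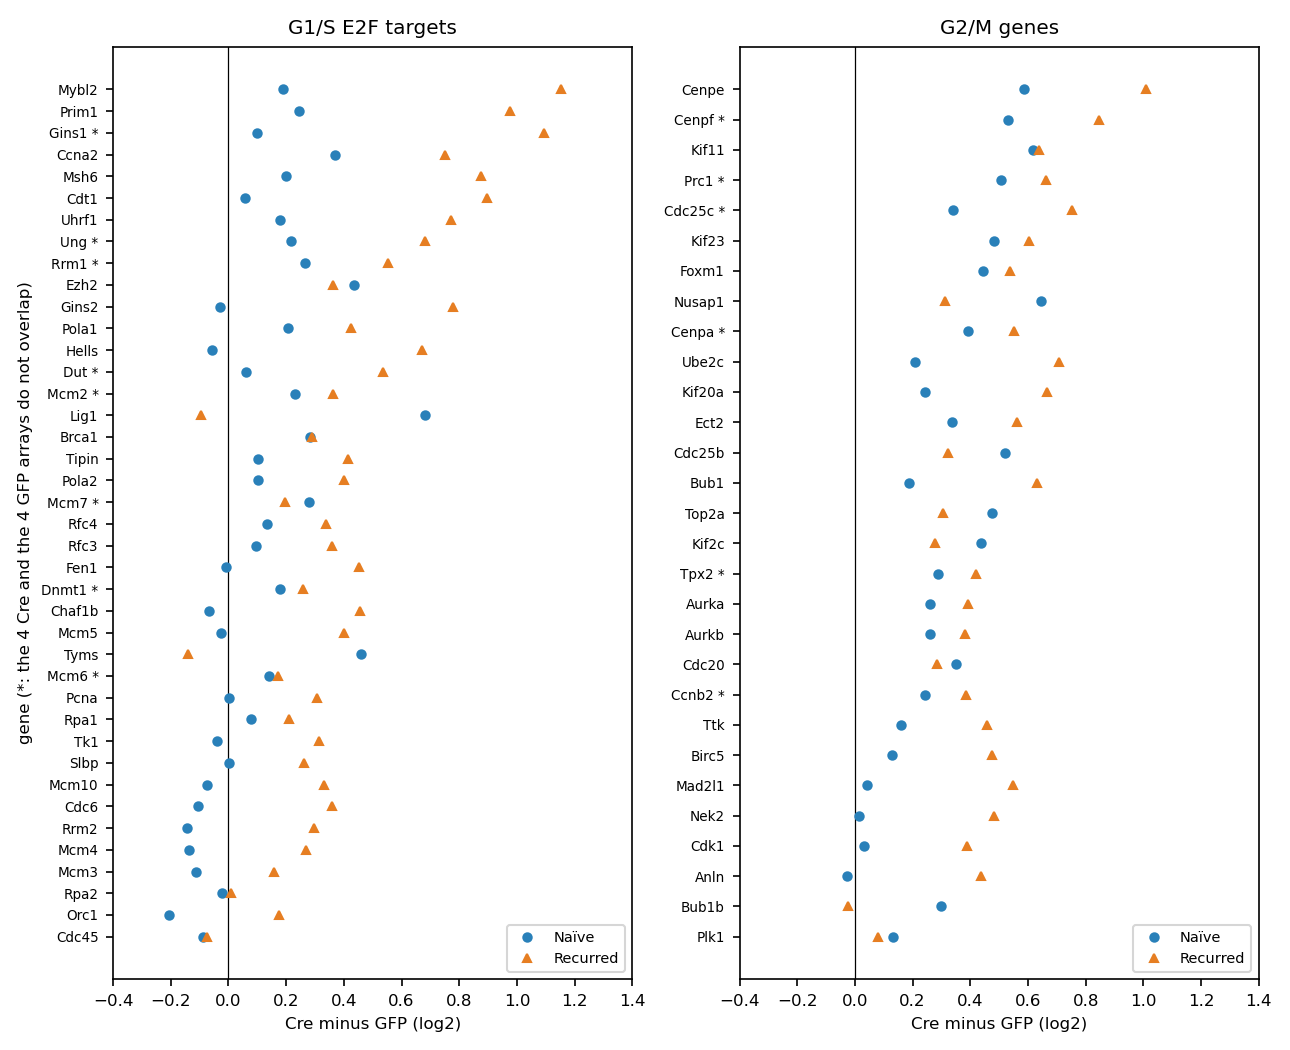
Cre minus GFP difference (log2, horizontal axis) of each measured G1/S gene and G2/M gene, in Naïve cells (circles) and Recurred cells (triangles), with an asterisk where the 4 Cre and the 4 GFP arrays do not overlap. All 29 G2/M genes were higher on average, whereas 37 of the 40 G1/S genes were, with Naïve differences closer to 0 (median 0.10).

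Promoter sequences of these genes were searched for the elements through which E2F and the pocket proteins are known to act. Windows of 300 bases (250 before to 50 after the start) came from RefSeq for GRCm38.p6, and 14452 of 18193 genes had at least 1 window. The E2F element was searched as TTTCCCGC, TTTCGCGC, TTTGCCGC or TTTGGCGC and the CHR as TTTGAA, on both strands. An E2F element was found in 3.21% of all 18109 windows and a CHR in 13.4%. Of the 42 windows of G1/S genes 35.7% held the E2F element and 9.52% the CHR. Of the 26 windows of G2/M genes 3.85% held the E2F element and 73.1% the CHR. Genes without overlap at the brightest probe set and higher in Cre cells, whatever their list, held the E2F element in 7.83% and the CHR in 19.4% of 396 windows. Genes without overlap and lower held them in 1.59% and 13.5% of 251 windows. Among called genes, those higher in both states held the E2F element in 0% and the CHR in 20% of 25 windows. Those higher in the Recurred arrays alone held them in 6.9% and 15.5% of 58 windows. For called genes lower in both states the shares were 2.08% and 10.4% of 96 windows, and for Recurred alone 1.55% and 12.4% of 129. A match is a description of the letters and not of binding. The following stretches, from 100 bases before to 30 after the start on the strand of the gene, show the elements (in capitals) in 5 genes whose Cre arrays all exceeded the GFP arrays and whose stretch holds a match. Of the other genes of the RB circuit and of G1/S without overlap, Mcm2, Dut, Rrm1, Ung and E2f8 held no E2F element in their windows, and in E2f7 and Dnmt1 it lay outside the stretch. Mcm7 (E2F element) and Cenpa (CHR) also held a match in the stretch and are not shown. The stretches shown lie at chr2:157204505-157204634 on the minus strand (Rbl1), chr1:128359676-128359805 minus (Mcm6), chr9:70421525-70421654 minus (Ccnb2), chr1:189688057-189688186 minus (Cenpf) and chr7:80294351-80294480 plus (Prc1).
Rbl1, E2F element: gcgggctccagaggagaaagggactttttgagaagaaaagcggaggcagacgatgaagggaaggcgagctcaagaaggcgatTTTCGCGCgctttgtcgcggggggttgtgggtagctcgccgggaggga
Mcm6, E2F element: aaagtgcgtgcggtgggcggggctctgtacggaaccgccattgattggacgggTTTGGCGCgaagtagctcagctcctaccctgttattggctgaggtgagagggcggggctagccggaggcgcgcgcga
Ccnb2, CHR: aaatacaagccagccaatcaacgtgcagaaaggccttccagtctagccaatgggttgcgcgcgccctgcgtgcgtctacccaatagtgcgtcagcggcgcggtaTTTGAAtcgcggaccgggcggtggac
Cenpf, CHR: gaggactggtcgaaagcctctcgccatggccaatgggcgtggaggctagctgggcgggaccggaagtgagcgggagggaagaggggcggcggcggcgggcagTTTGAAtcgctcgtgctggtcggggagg
Prc1, CHR: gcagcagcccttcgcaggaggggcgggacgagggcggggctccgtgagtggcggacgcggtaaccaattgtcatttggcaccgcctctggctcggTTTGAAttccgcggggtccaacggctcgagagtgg

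Interferon response genes, which cells switch on against viruses, were lower in Cre cells in both states. Of 35 measured genes 33 were lower, 31 of them in Naïve and in Recurred cells alike, against 22.6% of all genes that were lower in both states. The median difference was -0.55, with -0.37 in Naïve and -0.62 in Recurred cells. Mx2, an antiviral GTPase, read 5.52 and 5.18 on the Cre Naïve arrays against 5.88 and 5.74 on the GFP Naïve arrays, and 5.64 and 5.59 on the Cre Recurred arrays against 6.13 and 6.06 on the GFP Recurred arrays. Irf7, the transcription factor that amplifies the interferon response, read 6.70 and 6.57 against 7.59 and 6.91 in Cre Naïve and GFP Naïve cells, and 6.35 and 5.99 against 7.31 and 8.96 in Cre Recurred and GFP Recurred cells. Both genes were lower on every Cre array than on any GFP array, with differences of -0.47 and -1.29. The RNA sensor gene Ddx58 (-0.65) and the antiviral gene Rsad2 (-0.55) did not overlap either, which makes 4 of 35 (11.4%) against 233 of all genes (1.28%). Ddx58 and Rsad2 each separated at 1 of 3 probe sets, and 1 of the 3 of Rsad2 was higher in Cre cells (0.23). No member was called, against 1.42% of all genes called lower. In the additive fit 12 were lower at an unadjusted p under 0.05, against 5.32% of all genes, and without Cre Naïve replicate 1 that fit called 10 of the 35, against 4.68%. With all arrays, or with any other single array left out, that fit called 0 of the 35. The median on Cre Naïve replicate 1 was -0.20, and it was -0.54 on Cre Naïve replicate 2 and -0.47 and -0.80 on the Cre Recurred arrays. GFP Recurred replicate 2 was the brightest array for Irf7, and without it the median of the list was -0.39. The class I genes H2-K1 and H2-D1, which have similar sequences and whose signals could not be separated with certainty, differed by -0.59 and -0.63, with 9.29 and 9.48 on Cre Naïve replicate 2 and at least 10.88 on each of the other arrays.

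The interferon-stimulated response element (GAAA followed after any 2 bases by a second GAAA, on both strands) was found in 41.2% of the 34 windows of interferon response genes and in 3.03% of all windows. Genes without overlap and lower in Cre cells, whatever their list, held it in 4.38% of 251 windows, and those without overlap and higher in 1.77% of 396. Of the members without overlap, Irf7 held no such element in its window, and that of Rsad2 lay outside the stretch. The element is shown for Ddx58, at chr4:40239796-40239925 on the minus strand, over the same stretch around the start, with the element in capitals as it reads on the strand of the gene.
Ddx58, response element: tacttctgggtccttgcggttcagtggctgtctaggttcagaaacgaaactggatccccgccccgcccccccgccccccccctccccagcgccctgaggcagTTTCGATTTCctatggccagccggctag

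**Figure D3:**
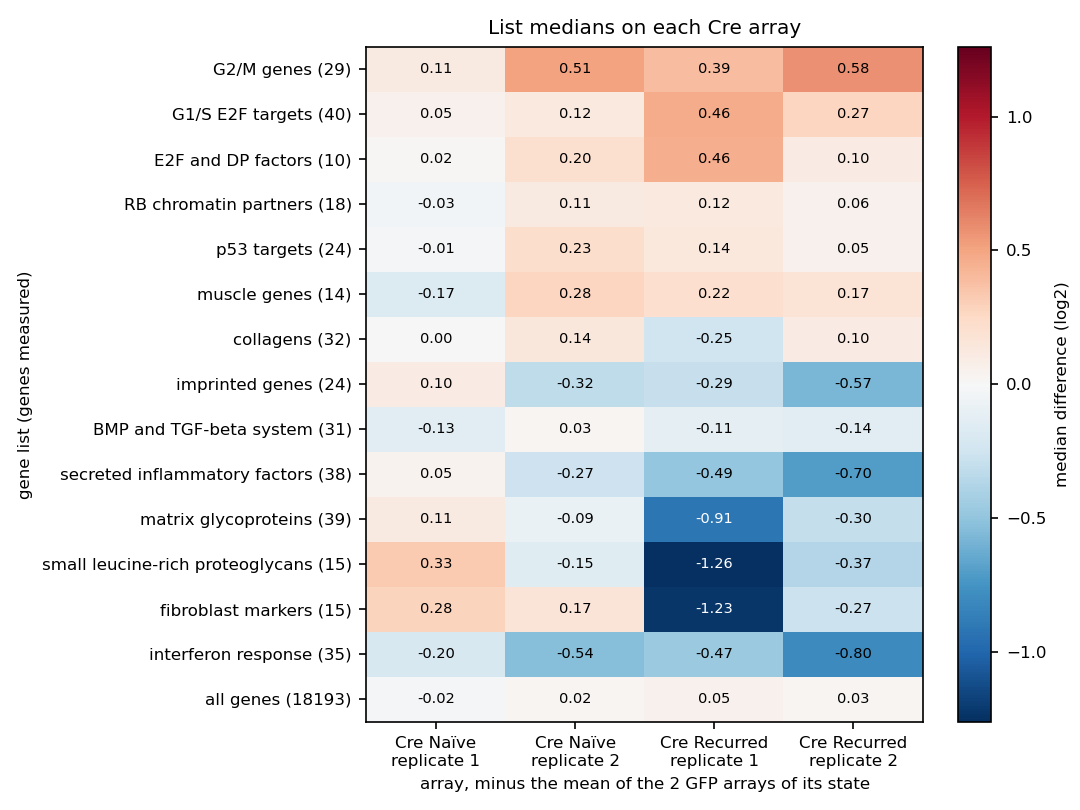
Median log2 difference of the genes of each list (rows, with the number of genes measured) on each Cre array (columns) from the mean of the 2 GFP arrays of the same state. The G2/M row is above 0 and the interferon row below 0 on all 4 Cre arrays, whereas the fibroblast markers are at 0.28 and 0.17 on the Cre Naïve arrays and at -1.23 and -0.27 on the Cre Recurred arrays.

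The 580 called probe sets were then divided by state. A probe set was counted for both states where Cre and GFP cells differed by at least 1.5-fold in the same direction in Naïve and in Recurred cells, and for Recurred alone where the Naïve difference was under 1.2-fold or opposite. By these limits 159 probe sets of 108 genes went the same way in both states (29 higher and 130 lower), 223 of 167 genes were carried by the Recurred arrays alone (69 higher and 154 lower), 198 were intermediate and 0 were carried by the Naïve arrays alone. The limits cut through a continuum. Just inside the limit for both states lay Acsl6 and Thbs2, with Naïve differences of -0.586 and -0.587, and just outside lay Cdyl2 with 0.583 and Inhbb with -0.581. Just inside the limit for Recurred alone lay Tmem185b with -0.259 and Gimap9 with 0.259, and just outside lay Prkar1b with -0.266 and 3830406C13Rik with -0.267. The 4 Cre and 4 GFP arrays did not overlap for 122 of the 580, namely 47 of the 159, 61 of the 198 and 14 of the 223. Over all probe sets the 4 Cre arrays were all above in 1016 (2.26%) and all below in 502 (1.11%). In the direction of the call, the 159 had a median difference of 0.86 in Naïve and 2.45 in Recurred cells, so the Recurred difference was the larger also among them. On Cre Naïve replicate 1 that median was 0.27 and on Cre Naïve replicate 2 it was 1.5. Of the 159, Cre Naïve replicate 2 lay farther out than replicate 1 in 156, and in 80 both Cre Naïve arrays lay beyond the GFP Naïve arrays. The limits for both states were met by 18 probe sets without Cre Naïve replicate 2 and by 1211 without replicate 1.

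**Figure D4:**
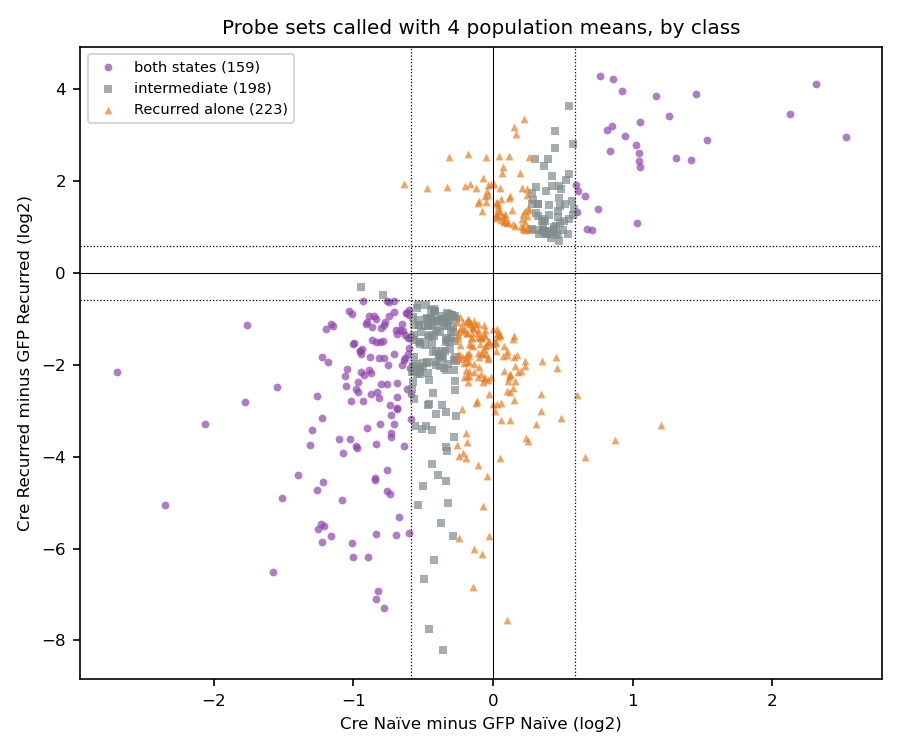
Cre minus GFP difference in Naïve cells (horizontal axis, log2) against that in Recurred cells (vertical axis, log2) for the 580 probe sets called with 4 population means, by class, with dotted lines at 1.5-fold. Purple circles (159) differ the same way in both states, orange triangles (223) are carried by the Recurred arrays alone and grey squares (198) are intermediate, and the Recurred axis spans the wider range.

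Among the genes lower in both states were several signalling and secreted factors. Rgs4, which shortens G protein signalling, read 7.92 and 8.18 on the Cre Naïve arrays against 8.81 and 8.96 on the GFP Naïve arrays, and 5.36 and 5.68 on the Cre Recurred arrays against 7.97 and 8.25 on the GFP Recurred arrays. Within each state the Cre arrays were the lower ones, and the difference of -1.71 passed the stricter threshold (adjusted p = 0.0345 from limma with 4 means). Tfpi2, a secreted inhibitor of serine proteases, read 8.03 and 7.15 against 8.24 and 9.10 in Cre Naïve and GFP Naïve cells, and 3.90 and 3.90 against 8.65 and 9.04 in Cre Recurred and GFP Recurred cells. It did not overlap and also passed (-3.01, adjusted p = 0.0482). The chemokine gene Ccl7 differed by -1.23 in Naïve and by -1.82 in Recurred cells, at 11.42 and 10.09 in Cre Naïve against 11.73 and 12.23 in GFP Naïve cells, and at 10.13 and 9.73 in Cre Recurred against 11.69 and 11.82 in GFP Recurred cells (-1.53, adjusted p = 0.189). Its neighbour in function Ccl2, the monocyte chemokine, did not overlap either and was not called (-0.83, adjusted p = 0.364). Vit, a matrix protein, and Ctsf, a lysosomal protease, were further members without overlap, with -2.19 and -1.30. Fstl3, which binds and blocks activins, had -1.33 and did not overlap, and Bmp4, a ligand of the TGF-beta family, had -1.60 with overlap.

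For several of the lower genes Cre Naïve replicate 1 read like the GFP arrays and Cre Naïve replicate 2 lay between. Sfrp2, a secreted Wnt antagonist, read 10.76 and 7.05 on the Cre Naïve arrays against 10.82 and 10.15 on the GFP Naïve arrays, and 3.66 and 3.62 on the Cre Recurred arrays against 10.27 and 10.04 on the GFP Recurred arrays. Ripk3, the kinase of necroptosis, had 10.61 and 7.68 against 10.26 and 10.55 in Cre Naïve and GFP Naïve cells, and 5.57 and 5.67 against 10.50 and 10.20 in Cre Recurred and GFP Recurred cells. The matrix protease gene Mmp3 had 12.60 and 9.49 against 12.89 and 12.22, and 7.27 and 7.29 against 12.57 and 11.81, in the same order. In all 3 genes the Naïve difference therefore rested on Cre Naïve replicate 2. The same held for the prostaglandin E synthase gene Ptges (-2.88), the imprinted gene Nnat (-3.26), the matrix protein gene Thbs2 (-1.91) and AW551984 (-3.87). The prostaglandin receptor gene Ptger2, with -2.37, read 5.34 and 4.28 in Cre Naïve against 5.24 and 6.35 in GFP Naïve cells, and 2.62 and 2.68 in Cre Recurred against 6.33 and 6.49 in GFP Recurred cells.

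Genes higher in both states were fewer. Elavl2, a neuronal RNA-binding protein, read 5.32 and 6.44 on the Cre Naïve arrays against 5.08 and 3.63 on the GFP Naïve arrays, and 6.92 and 7.63 on the Cre Recurred arrays against 4.03 and 4.73 on the GFP Recurred arrays. It was higher on every Cre array than on any GFP array (2.21, adjusted p = 0.18 from limma with 4 means), and of its 5 probe sets 4 were higher without overlap and 1 was lower (-0.37) with overlap. Mapk10, which encodes the stress kinase JNK3, did not overlap at 1 of its probe sets, with 4.33 and 7.0 against 4.06 and 2.63 in Cre Naïve and GFP Naïve cells, and 6.96 and 7.05 against 2.99 and 2.77 in Cre Recurred and GFP Recurred cells. Here too the step between the 2 Cre Naïve arrays was large. Prdm16, a zinc finger regulator known from brown fat, had 4 called probe sets with differences between 1.25 and 2.51. The transcriptional cofactor Eya1 had 2.54, the water channel gene Aqp1 1.97 and Rflnb, an actin organiser that binds filamin, 1.91, and in these 3 genes Cre Naïve replicate 1 overlapped the GFP arrays. Serpinb7, a serine protease inhibitor, read 3.22 and 3.76 on the Cre Naïve and 3.96 and 5.02 on the Cre Recurred arrays, against 2.70 to 2.97 on the GFP arrays.

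Genes carried by the Recurred arrays alone had small or opposite Naïve differences by the rule. In the direction of the call, 1 Cre Naïve array still lay beyond the GFP Naïve arrays in 128 of the 223 probe sets and both in 18. Hspa1a, an inducible heat shock protein whose sequence is nearly shared by Hspa1b, so that the source of the signal is uncertain, read 4.64 and 4.88 on the Cre Recurred arrays against 8.57 and 8.44 on the GFP Recurred arrays, and 8.49 and 7.99 on the Cre Naïve arrays against 8.27 and 8.72 on the GFP Naïve arrays. The called probe sets of Hspa1b were intermediate, with Recurred differences from -1.15 to -1.14 and Naïve differences from -0.53 to -0.46. Dnaja4, a co-chaperone of that protein family, read 4.90 and 4.68 against 7.19 and 6.86 in Cre Recurred and GFP Recurred cells, and 6.99 and 7.19 against 7.09 and 7.46 in Cre Naïve and GFP Naïve cells. Hspa1a and Dnaja4 passed the stricter threshold over all arrays (adjusted p = 0.0361 each from limma with 4 means, for Dnaja4 at a second probe set that was itself intermediate). The 2 Naïve populations nevertheless overlapped for Hspa1a, and for Dnaja4 at the probe set whose values are given. The uncharacterised gene 2210016F16Rik, with 6.28 and 6.49 against 10.37 and 10.23 in Cre Recurred and GFP Recurred cells, passed as well (adjusted p = 0.0345 from limma with 4 means). Of its 3 probe sets 1 was called, and their Recurred differences ran from -3.9 to 0.03. Sfrp1, a secreted Wnt antagonist like Sfrp2, read 5.65 and 6.88 on the Cre Recurred arrays against 13.02 and 13.20 on the GFP Recurred arrays, and 12.81 and 11.23 on the Cre Naïve arrays against 12.28 and 12.03 on the GFP Naïve arrays. At this probe set it differed by -6.84 in Recurred and by -0.14 in Naïve cells. All 5 Sfrp1 probe sets were called, with Naïve differences from -0.42 to -0.11. Some of them were intermediate, among them the one with the largest Recurred difference (-8.22, with -0.36 in Naïve cells). Lum, which encodes the matrix proteoglycan lumican, differed by -7.55 in Recurred and by 0.10 in Naïve cells.

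A difference between the states was also tested directly, as the interaction of RB status with state. By the limits of the study it called 180 of all probe sets (0.4%), and by the stricter limit 0, with 4656 (10.3%) at an unadjusted p under 0.05. Of the 223 probe sets carried by the Recurred arrays alone 79 were among the 180, and so were 4 of the 159 of both states and 17 of the 198 intermediate ones. The classes were chosen by the differences of each state, so these counts describe them and are no test of the division. The smallest adjusted p among named genes was 0.0557 for 2210016F16Rik, Klhl23 and Tnfrsf11b. Klhl23, a kelch protein, differed by 0.45 in Naïve and by -1.84 in Recurred cells. Tnfrsf11b, the decoy receptor osteoprotegerin, differed by 1.21 and -3.31. For both the states went opposite ways. In a few genes a GFP population stood out and not a Cre one. Thsd4, a microfibril protein, read 4.22 and 4.49 in Cre Recurred against 6.59 and 6.43 in GFP Recurred cells, and 4.13 to 4.55 on the Naïve arrays. The chemokine gene Ccl11 read 3.90 and 4.04 in Cre Recurred against 9.65 and 10.32 in GFP Recurred cells, with 6.21 and 4.14 in Cre Naïve and 5.31 and 5.32 in GFP Naïve cells.

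On the higher side, the Recurred arrays alone carried Dppa2, normally active in early embryos and the germline, with 6.19 and 6.55 on the Cre Recurred arrays against 3.09 and 3.29 on the GFP Recurred arrays, and 3.04 and 3.69 on the Cre Naïve arrays against 2.99 and 3.43 on the GFP Naïve arrays. Rgs20, a regulator of G protein signalling like Rgs4, had 6.97 and 6.73 against 4.35 and 4.73 in Cre Recurred and GFP Recurred cells, and 4.91 and 4.94 against 4.98 and 4.72 in Cre Naïve and GFP Naïve cells. In the 3 other populations both genes lay below the array medians. A second Dppa2 probe set was intermediate, with 0.30 in Naïve and 2.48 in Recurred cells. Of the 3 Rgs20 probe sets 1 was called, and their Recurred differences ran from 0.07 to 2.31. The adenylyl cyclase gene Adcy7 differed by 2.54 in Recurred and by -0.05 in Naïve cells. Among the 14 members of this class without overlap were Bora, an activator of mitotic kinases (0.70), the arginine methyltransferase gene Prmt7 (0.74), Prkaa2, a catalytic subunit of AMPK (0.82), and Gins1, whose small Naïve differences pointed the same way.

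The Naïve and the Recurred comparison share no array, so their agreement could be counted directly. Between Cre Recurred and GFP Recurred cells 3988 probe sets were called (8.85%), with 1836 of them higher, 2152 lower and 325 (0.722%) past the stricter limit, whereas between Cre Naïve and GFP Naïve cells 0 were called. Of the 3988, 2211 (55.4%) had the same sign in Naïve cells, against 49.8% of all probe sets, and 293 (7.35%) were at least 1.5-fold apart in the same direction while 113 were so in the opposite one. The share depended on the array. Against the GFP Naïve mean it was 32% for Cre Naïve replicate 1 alone (43% over all probe sets) and 69.4% for Cre Naïve replicate 2 alone (54.9% over all probe sets). Across all probe sets, which are not independent replicates, Pearson r between the Naïve and the Recurred differences was 0.12, and it was -0.32 with Cre Naïve replicate 1 alone and 0.38 with Cre Naïve replicate 2 alone.

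Lists of secreted and matrix genes had lower medians in the Recurred than in the Naïve comparison. Over all genes 45.5% were lower in Cre cells, 1.42% were called lower and 0.467% called higher. Of 38 secreted inflammatory factors 30 were lower in Cre cells, with a median of -0.31 (-0.08 in Naïve and -0.53 in Recurred cells), and 7 were called lower. Of 39 matrix glycoproteins 30 were lower, with medians of 0.06 in Naïve and -0.72 in Recurred cells, and 2 were called lower and 1 higher. Of 15 small leucine-rich proteoglycans 11 were lower (0.10 in Naïve and -0.95 in Recurred cells), and of the 15 fibroblast markers 12 (0.19 and -0.95). Single arrays weighed on these medians. Without Cre Recurred replicate 1 the fibroblast markers had a median of -0.01 in place of -0.29 and the matrix glycoproteins -0.10 in place of -0.32. The secreted factors had -0.17 in place of -0.31 without GFP Recurred replicate 2. The proteoglycans had -0.17 in place of -0.40 without Cre Recurred replicate 1 and -0.65 without Cre Naïve replicate 2. The summed linear signal of the fibroblast markers ran from 40610 to 86770 on the Cre arrays and from 69920 to 98150 on the GFP arrays. Vim, the fibroblast intermediate filament, lay between 13.17 and 13.34 on the Cre arrays and between 13.34 and 13.58 on the GFP arrays. Of 32 collagens 18 were lower, and the median of -0.04 turned to 0.07 without Cre Recurred replicate 1 and to 0.01 without GFP Recurred replicate 2. Of 24 imprinted genes 16 were lower, with Nnat among the 2 called lower, and of 31 genes of the BMP and TGF-beta system 23 were lower, with 3 called lower.

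Markers of other cell kinds moved in places. Over all genes 54.5% were higher in Cre cells and 0.467% were called higher. Of 9 mesothelial markers 7 were higher in Cre cells and none was called, with a median of 0.10 and a summed linear signal of 249.9 to 749.2 on the Cre arrays and 261.2 to 315.7 on the GFP arrays. Krt19 read 7.23 and 6.26 in Cre Recurred against 4.86 and 4.71 in GFP Recurred cells, and 4.48 and 6.11 in Cre Naïve against 5.37 and 4.56 in GFP Naïve cells. Msln differed by 1.71 in Recurred and by -0.65 in Naïve cells. Of 14 muscle genes 9 were higher, and Myf5, which marks muscle precursors, read 2.66 and 6.77 in Cre Naïve against 2.59 and 5.29 in GFP Naïve cells, and 7.05 and 6.80 in Cre Recurred against 2.75 and 2.32 in GFP Recurred cells. Myf5 was thus high on 3 of 4 Cre arrays and on 1 GFP array. Their part in the differences above was not tested. Of 24 p53 target genes 14 were higher and 10 lower with a median of 0.08, and 0 were called, in cells that all carried p53DD.

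The genes that differed were spread over the genome with some unevenness. At the brightest probe set of each gene, 85 genes were called higher (0.467%) and 258 lower (1.42%). Chromosome 8 held 16 of the 85 and chromosome 1 held 14, with 932 and 1057 of the 18193 genes, and chromosome 15 held 0 of the 85 with 724 genes. Over the genes of chromosome 8 with a signal above the median, the median difference from the GFP mean of the state was 0.00 and 0.04 on the Cre Naïve arrays and 0.21 and 0.27 on the Cre Recurred arrays. On chromosome 3 it was 0.01 on Cre Naïve replicate 1, 0.23 on Cre Naïve replicate 2 and 0.22 and 0.25 on the Cre Recurred arrays. Chromosome 3 was thus a case in which Cre Naïve replicate 2 went with the Cre Recurred arrays. On chromosome 13 Cre Naïve replicate 2 was at 0.20 and the Cre Recurred arrays were at -0.18 each, opposite in sign. Such medians describe all genes of a chromosome together and carry no test.

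**Figure D5:**
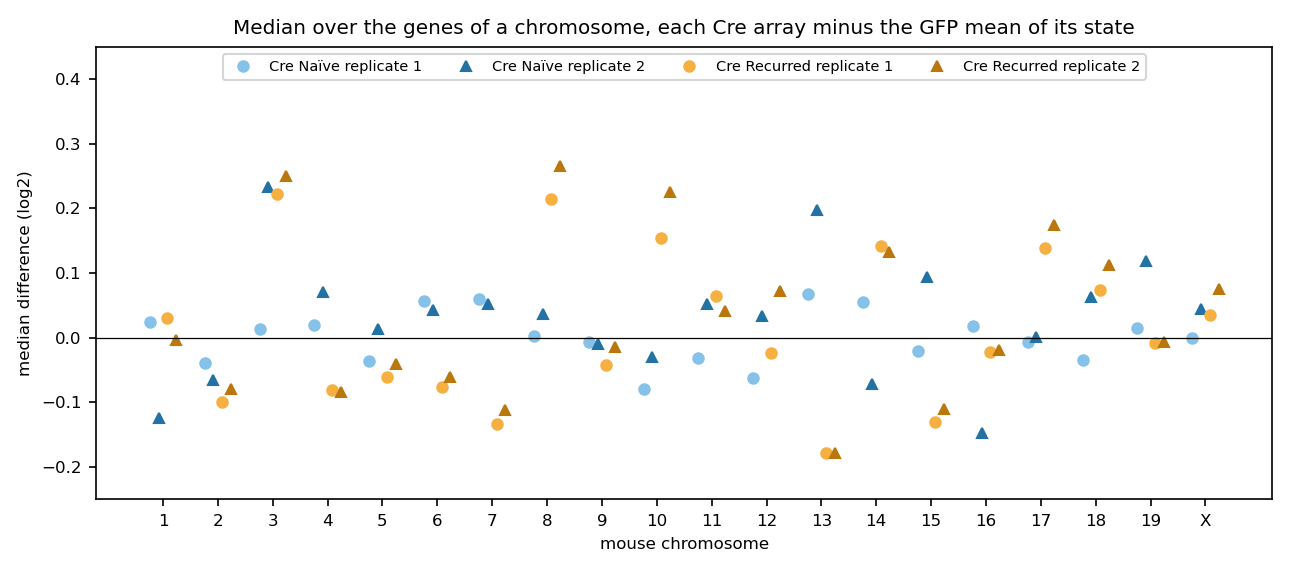
Median log2 difference of the genes of each mouse chromosome (horizontal axis) with a signal above the median, for each of the 4 Cre arrays from the mean of the 2 GFP arrays of its state. On chromosome 3 Cre Naïve replicate 2 (0.23) lies with the 2 Cre Recurred arrays (0.22 and 0.25), and on chromosome 8 the Cre Recurred arrays (0.21 and 0.27) lie above both Cre Naïve arrays (0.00 and 0.04).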

How the data were processed

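RNA of each sample was measured by the authors on 1 Affymetrix mouse genome array. They deposited log2 values from the Robust Multichip Average, in which background correction and quantile normalization are followed by a summary per probe set. The software version is not given in the sources used here. Quantile normalization gives all arrays nearly the same distribution, so a general shift in RNA content could not be seen. Of 45101 probe sets 64 controls were left out, and 34945 of the others carried 1 gene symbol in the platform annotation, 932 several and 9160 none.

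The limma fits (version 3.58.1, R 4.3.3) held RB status and state as additive terms, with 5 residual degrees of freedom, or 1 mean per population, with 4. P-values were adjusted over 45037 probe sets by Benjamini-Hochberg. The fits were tested on simulated data. Alternatives were a SAM-type statistic (the study used SAM), median centring, cyclic loess, treat at 1.2-fold, a robust prior with trend, weights per array (statmod 1.5.0), no state term, a replicate block, fits without each array in turn, fits without dim or suffixed probe sets, and other class limits.

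The rule selected for naming Rb1, the 8 genes of smallest p in each class and direction, at most 4 per list (again by p) and the 4 calls with the largest interaction. Not every selected gene is described above, and Stox2, Slc11a1 and Gpm6b are among those left out. Because the additive fit gave no calls, the rule was applied to the fit of 4 means. Some genes of the RB pathway, the genes at the class limits, the CHR and the interferon element were added with their values already seen. Members and lists were chosen with earlier results of these data known. A gene in a list is represented by its brightest probe set, and of all probe sets 34741 were found by Entrez ID in the GRCm38.p6 annotation. Precision is limited by the number of arrays. Plots were made in Python 3.11.15 with matplotlib 3.10.9.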

Additional observations from a re-analysis of the deposited data

Results flagged for a closer look

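The difference between Cre and GFP cells itself differed between the states, in the interaction test from limma at the study's thresholds, at 24 probe sets among the brightest or named ones. Values are the Recurred difference minus the Naïve difference on the log2 scale, with n = 2 arrays per population, and 0 passed an adjusted p under 0.05. In that limma test the adjusted p was 0.0557 for 2210016F16Rik (-3.70 at 1 of 3 probe sets), Klhl23 (-2.29) and Tnfrsf11b (-4.51 at 1 of 2). It was 0.0915 for Hspa1a (-3.49). In Klhl23 and Tnfrsf11b the difference was positive in Naïve cells (0.45 and 1.21) and negative in Recurred cells (-1.84 and -3.31).

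Of the genes with a lower Recurred difference, Sfrp1 had -6.71 and -7.86 at 2 of its 5 probe sets, Lum -7.65, Rpl39l -7.29, AW551984 -6.11 (at 1 of 3 probe sets), Ccl11 -5.87 and Tfpi2 -3.86. Smaller values were found for Prkar1b, with -2.84 and -1.73 at 2 of its 5 probe sets, and for Npepl1 (-1.34). Others were Dnaja4 (-2.05 at 1 of 3 probe sets), Thsd4 (-2.02 at 1 of 2) and Rgs4 (-1.76 at 1 of 3). At the Rgs4 probe set that was not called, the Naïve difference (-1.44) was larger in size than the Recurred one (-0.58). The second Thsd4 probe set differed by 0.07 in Naïve and 0.06 in Recurred cells. Rgs4, Tfpi2 and AW551984 met the limits for both states all the same, with Naïve differences of -0.83, -1.08 and -0.82.

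Of the genes with a higher Recurred difference, Dppa2 had 3.02 (at 1 of 2 probe sets) and Adcy7 2.77 and 2.59 at 2 of its 3 probe sets. Rgs20 had 2.23 (at 1 of 3), Iqcg 1.94, Gmps 1.28 (at 1 of 3) and Bora 0.97 (at 1 of 2). For Bora the Naïve difference was 0.21 and the Recurred difference 1.18, the same direction in both.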

How the results depend on the processing

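With the additive fit the count of 0 probe sets at the study's thresholds became 580 with 4 population means, 1 without the state covariate, 2740 with array weights (which ran from 0.534 to 2.88) and 422 by the SAM-type statistic, and 0 to 2351 with 1 array left out, where 2351 came without Cre Naïve replicate 1 and 422 without GFP Naïve replicate 1. The count at the stricter threshold became 6, and 1 by the SAM-type statistic, with 0 to 408 (408 without Cre Naïve replicate 1). Those of both states became 159 with 4 means, 1 without the state, 472 with weights and 253 by the SAM-type statistic, with 0 to 1242, and those of the Recurred arrays alone 223, 1309 with weights and 5 by the SAM-type statistic, with 0 to 249. The trended prior, treat, cyclic loess, median centring and the filters left all of these counts at 0. Over all probe sets the interaction itself called 180 by the limits of the study, with all arrays and 4 means. Where the additive fit called 0 probe sets, the interaction count given next was 0 by construction and tests nothing. It was taken only among the probe sets called in the additive fit under each setting. Interaction calls among them were 0 with all arrays, 89 without Cre Naïve replicate 1, 1 without GFP Naïve replicate 1 and 0 without any other, and they stayed at 0 with cyclic loess, median centring and the filter on dim probe sets. In the additive fit, leaving out GFP Naïve replicate 2, Cre Naïve replicate 2 or any Recurred array gave 0 as well.

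With 4 means, alternatives chosen after seeing the data gave 5 to 2403 calls in place of 580 with 1 array left out (fewest without GFP Recurred replicate 1), 0 to 765 in place of 6, 2 to 1211 in place of 159 and 1 to 301 in place of 223. The 6 became 10 with a trended and robust prior. A 2-fold limit left 51 in both states, and a 1.5-fold limit for the Naïve difference gave 372 for the Recurred arrays alone. Probe sets without overlap and at least 1.5-fold apart numbered 198, and 177 to 2016 with 1 array left out. The cause of these shifts was not tested.

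With 1 array left out, the sign turned for Col1a1 (-0.092 to 0.53), Ccnd1 (-0.34 to 0.081), Ccne1 (-0.17 to 0.040), E2f1 (-0.041 to 0.17) and Rbl2 (-0.063 to 0.26), none of them called. With the probe set of smallest p in place of the brightest, the medians of 7 lists moved. The sign turned for inhibitors of the cyclin-dependent kinases (0.12 in place of -0.03, with 4 of 7 higher in place of 3), Wnt antagonists (-0.05 in place of 0.04) and smooth muscle markers (-0.005 in place of 0.09). The others were G1/S targets (0.27), p53 targets (0.16 in place of 0.08), RB chromatin partners (0.10 in place of 0.04) and the BMP and TGF-beta system (-0.22).

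Samples of 1 number share only a number in the labels. Correlations of same-numbered deviations ran from -0.255 to 0.307. The replicate block left the additive count at 0 and gave 542 in place of 580 and 3 in place of 6 with 4 means.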
